A study of Mus musculus with 2 samples.

Results

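Of 23339 autosomal regions in the deposited H3K9me2 table (23946 regions in all), 671 had H3K9me2 reads concentrated around their middle. They are called centre-concentrated regions here. Each region has a 10 kb window of 50 bins, and the choice set the 10 bins within 1000 bp of the middle (the centre) against the other 40 bins (the flank). A region was taken when the scaled signal of both libraries together was at least 8 in the centre and when the signal per bin was at least 1.5 times as high in the centre as in the flank. Scaled signal means reads multiplied by 1 constant per library, by the authors. The concentration is therefore how the regions were chosen, and it is given below as a description.

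The series holds 2 ChIP-seq libraries of H3K9me2 (antibody ab1220) from mouse embryonic stem (ES) cells called MC1-ZE7, strain MC1 (129S6/SvEvTac), grown without feeder cells in medium with serum and leukemia inhibitory factor. One library is from Emerald-negative cells and the other from the high fraction of Emerald-positive cells, separated by FACS. Emerald is a green fluorescent protein, and the series calls the populations Zscan4 positive and negative; the labels do not state which promoter drives Emerald. With 1 library per population there is no replicate check, so no test between populations was made. The 95% intervals below are exact (Clopper-Pearson). They cover counting error only, since there is 1 library per population. PCR copies cannot be told from separate molecules without molecular identifiers, so the intervals can be too narrow even for counting error.

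H3K9me2, dimethylation of lysine 9 of histone H3, is deposited in mammals mainly by the enzymes G9a and GLP and is a mark of silent chromatin. In mouse ES cells it is known for broad domains rather than narrow peaks. The Zscan4 genes encode zinc finger proteins that few ES cells express at any moment and that are known from early embryos and from telomere maintenance. The gene annotation used here is of another genome build, and regions carry mm9 positions only and were not placed in genes, exons or introns.

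Depth set what could be seen at a single region. The windows held 219416 Emerald-positive and 270338 Emerald-negative reads, with a read in overlapping windows counted once in each. A centre-concentrated region had a median of 11 central reads over both libraries (quartiles 9 and 13), of which 5 were Emerald-positive (quartiles 4 and 7) and 6 Emerald-negative (quartiles 4 and 8). The median over all autosomal regions was 2 central reads. No input library was used here, so a high count from the mark cannot be told apart from one due to copy number or mapping.

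Most centre-concentrated regions were weak, and a few were strong. The central signal, summed over both libraries, had a median of 10.6 (quartiles 9.20 and 13.1) and reached 494. It lay under 12 in 444 regions, between 12 and 20 in 178, between 20 and 50 in 31 and at 50 or more in 18. The density of the centre relative to the flank was under 2 in 330 regions, 2 to 3 in 217, 3 to 5 in 84 and 5 or more in 40. Counting intervals of that density ratio lay above 1 in 251 of the 671 regions (37.4%) and above 1.5 in 78 (11.6%). The rule chose on this ratio, so these counts describe the chosen regions and are no test of the concentration. The 9 regions with over 100 central reads held 22.1% of the central reads of the whole set.

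Regions on either side of the limit were alike in depth. The region just inside it, R21790 (chr8:113128903-113129864), had 7 central reads in each library and a central signal of 14.1 against 37.7 in the flank. The region just outside, R21468 (chr8:88126510-88127414), had 8 central reads in each library and 16.2 against 43.1. At such counts a single read moves a region across the limit.

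The flank of the centre-concentrated regions was marked as well. Their median flank signal was 21.6, against 13.5 for all autosomal regions. The comparison regions, 8251 autosomal regions with a signal of at least 20 over the whole window that did not meet the rule, had a median flank signal of 26.7. Of the 671 regions, 614 reached a whole-window signal of 20 themselves, and 57 were taken at a lower total.

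The 49 regions with a central signal of 20 or more and the 622 weaker ones had different mean profiles. In the strong regions the summed signal per bin was 11.2 within 400 bp of the middle, 5.80 between 400 and 1000 bp, 2.99 between 1000 and 2000 bp and 1.63 beyond 2000 bp. This mean rests largely on the 9 regions with over 100 central reads, which held 61.1% of the central reads of the 49. Without them (a check chosen after seeing the data) the other 40 had 5.62, 2.58, 1.48 and 1.07 in the same zones, again with the highest value in the middle. The fullest central bin lay within 400 bp of the middle in 30 of the 49, so the mean is not the shape of every strong region. In the weaker regions it was 1.07 within 400 bp and 1.13 between 400 and 1000 bp, with no rise towards the middle. There it changed from 1.13 in the last central bin (800 to 1000 bp) to 0.662 in the next bin outwards (1000 to 1200 bp), which is the edge used by the rule. In the comparison regions the signal was lowest within 400 bp, at 0.411, and was 0.801 beyond 2000 bp.

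**Figure D1:**
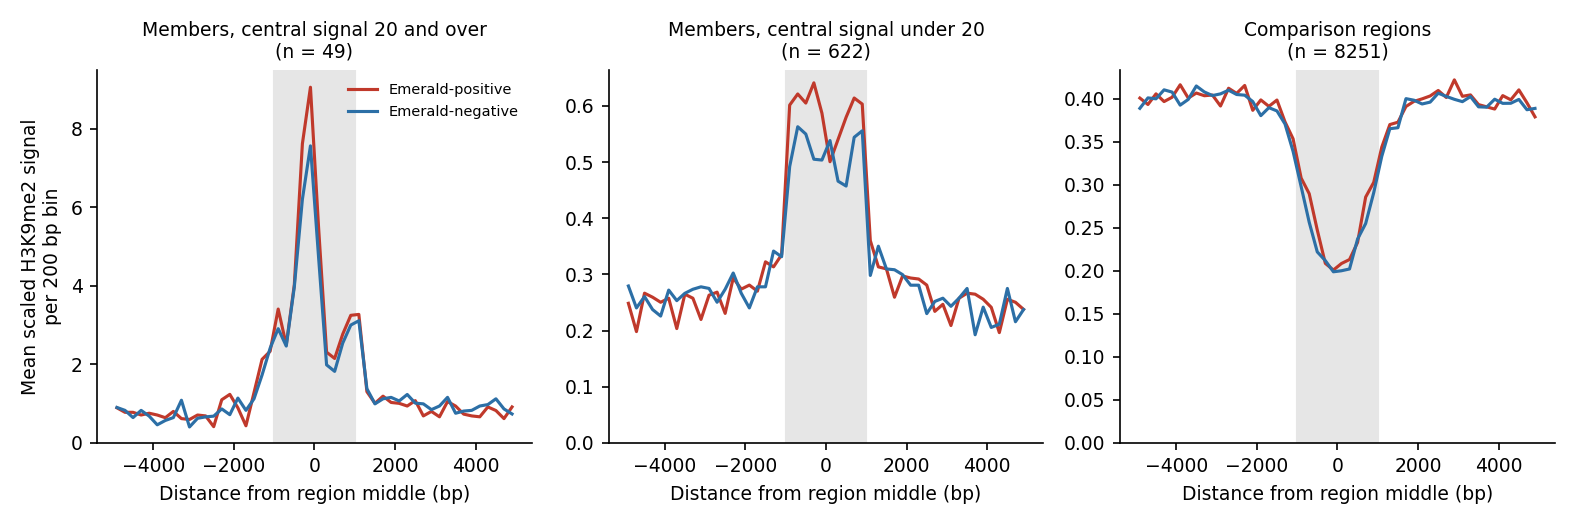
Mean scaled H3K9me2 signal per 200 bp bin (y axis, a different scale in each panel) against distance from the region's middle in bp (x axis), for 49 strong centre-concentrated regions, 622 weaker ones and 8251 comparison regions. Red is the Emerald-positive and blue the Emerald-negative library, and grey marks the 10 central bins used by the rule. The mean of the strong regions, 61.1% of whose central reads come from 9 regions, is highest in the middle, the weaker ones have a plateau that ends at the grey edge, and the comparison regions dip in the middle.

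Because both libraries chose the regions, the concentration was also read in a library that had taken no part in the choice. Choosing on the Emerald-positive library alone (central signal at least 4, same density rule) gave 1237 regions with a centre-to-flank ratio of 2.60 in that library. In the Emerald-negative library the same regions had a ratio of 1.32 (interval 1.28 to 1.36), against 0.666 over all autosomal regions. Choosing on the Emerald-negative library alone gave 915 regions with a ratio of 2.52, and 1.61 (1.56 to 1.67) in the Emerald-positive library, against 0.695 over all autosomal regions. The centre was thus less dense in the library not used than in the library that chose, and denser than in autosomal regions as a whole. The latter had no central minimum: their median was 1 central read in the library not used, against 3 for the chosen regions. The 983 comparison regions with a central signal of at least 8 had ratios of 0.835 in the Emerald-negative and 0.941 in the Emerald-positive library. Both libraries had a part in their failing the rule. No set chosen on 1 library and matched in central level was made.

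The heavily read regions carried part of that ratio. Without regions over 100 central reads the values in the library that did not choose were 1.117 (1.08 to 1.15) for Emerald-negative and 1.305 (1.25 to 1.36) for Emerald-positive cells. That limit counts the central reads of both libraries, so the library that did not choose had a part in it. This alone can lower its ratio. In the Emerald-negative library the mean signal per bin was then 0.344 both in the centre and between 1000 and 2000 bp from the middle, and 0.296 beyond 2000 bp. That profile was level out to 2000 bp and lower beyond. It lacked the central dip of the comparison regions, which had been set apart by failing the rule. In the Emerald-positive library the mean signal per bin was 0.409 in the centre, 0.357 between 1000 and 2000 bp and 0.299 beyond.

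**Figure D2:**
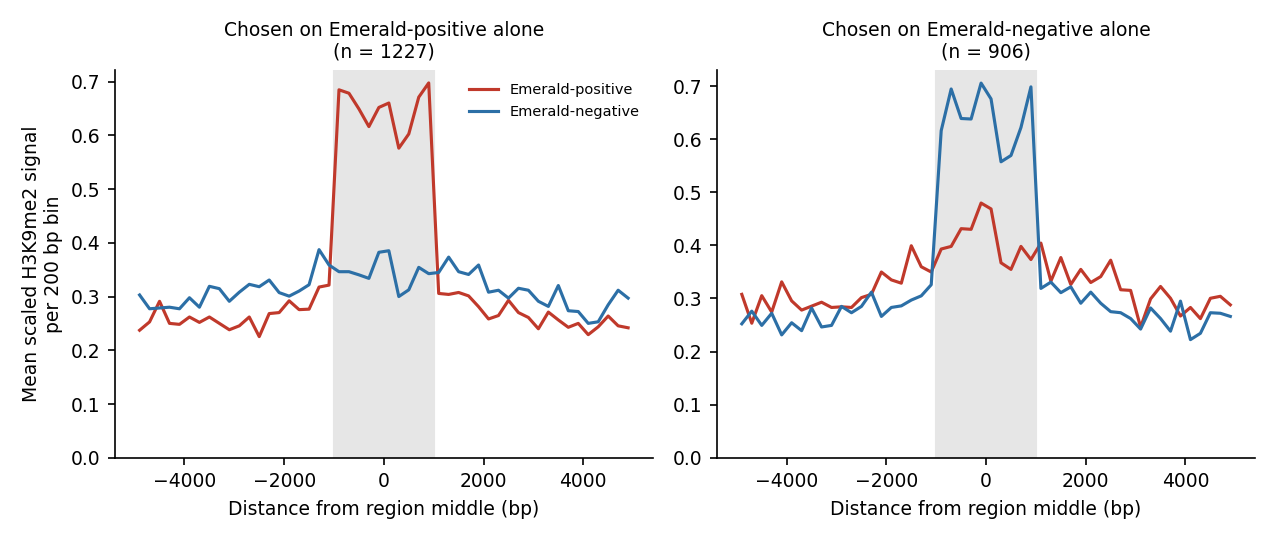
Mean scaled H3K9me2 signal per 200 bp bin (y axis) against distance from the region's middle in bp (x axis) for 1227 regions chosen on the Emerald-positive library alone and 906 chosen on the Emerald-negative library alone, without regions over 100 central reads. Red is Emerald-positive, blue is Emerald-negative and grey marks the central bins. The limit of 100 counts the central reads of both libraries together. The library that chose has a plateau with sharp edges, and the other library has no sharp edge and falls slightly outwards.

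A minority of the regions met the single-library rule in both libraries. Among the 671, 236 (35.2%) met the single-library rule in both libraries, 268 in the Emerald-positive library only, 161 in the Emerald-negative library only and 6 in neither. Since both libraries chose the regions, this split is a description: 41 of the 49 strong regions passed in both. Of the 1237 regions chosen on Emerald-positive cells, 19.1% passed in Emerald-negative cells, where 3.92% of all autosomal regions passed. Of the 915 chosen on Emerald-negative cells, 25.8% passed in Emerald-positive cells, against 5.30% of all autosomal regions. The shares of all autosomal regions take in regions of any central level, so they are not matched to the chosen ones.

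The place of the reads within the centre was not part of the rule. In strong regions the libraries put their fullest central bin close together. Among the 33 strong regions in which each library had a single fullest bin, it was the same 200 bp bin in 17 and at most 1 bin apart in 28 (84.8%). Among 232 weaker regions it was the same bin in 36 (15.5%) and at most 1 bin apart in 77 (33.2%). Autosomal regions with a central signal of at least 8 that failed the rule had values of 16.1% and 39.6% over 323 regions, so the weaker regions were not above those. Among 42 failing regions of at least 20 central reads, the values were 23.8% and 47.6%. All 49 strong regions had a median of 38 central reads, and all 81 failing regions of at least 20 central reads had 30. The 31 strong regions with a central signal under 50 had a median of 25. Among the 18 of these with a single fullest bin in each library, the values were 50.0% and 72.2%. These counts are small, and the part of depth in the agreement was not tested.

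The central reads were in few bins in some regions and spread in others. In strong regions a median of 51.3% of the central reads lay within 400 bp of the middle, against 37.5% in the weaker ones, and an even spread over the 10 bins would put 4 bins' worth there. At least 75% of the central reads lay within 400 bp in 13 of the 49 strong and in 24 of the 622 weaker regions. At least 50% of the central reads fell in 1 bin in 10 strong and 47 weaker regions. R18447 (chr6:97306872-97307751) had 17 of its 22 central reads in the bin 500 bp from the middle, and R02618 (chr10:127877682-127878847) had 18 of 25 in the bin at 700 bp. How duplicate reads were treated is unknown, and its part in such single-bin piles was not tested.

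The most heavily read region, R09127 (chr17:4626258-4626811, 553 bp wide), had 268 Emerald-positive and 214 Emerald-negative central reads, against 17 and 15 in its much longer flank. Its density ratio of 60.7 (interval 42.1 to 89.1) was the highest of all members, and 93.4% of the central reads lay within 400 bp of the middle. R04828 (chr12:70462654-70462920, 266 bp) followed in density at 58.0, with 41 and 43 central reads and 2 and 4 in the flank. In R21382 (chr8:86280799-86281027, 228 bp) all central reads, 78 and 75, fell in 2 bins, with 13 and 10 in the flank. In these 3 the central reads of both libraries were in 2 to 6 bins over a thin flank, and in R04828 the fullest bin lay 500 bp from the middle.

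Other strong regions sat inside broad high signal or had their reads off the middle. R02653 (chr11:3067389-3068432) had 129 Emerald-positive and 159 Emerald-negative central reads, but 311 and 412 in the flank. Its density ratio was 1.60, and its fullest bin lay 900 bp from the middle. R06447 (chr14:6036216-6036845) had 123 and 160 central reads over 197 and 255 in the flank, spread over all 10 central bins. R12739 (chr2:121347026-121348100) had 65 and 64 central reads, none within 400 bp of the middle, and its fullest bin at 700 bp held 69 of them. The rule's centre thus took in narrow peaks, parts of broad signal and peaks beside the middle.

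Among the remaining regions with the highest central signal, R10254 (chr18:3005258-3006339) had 205 Emerald-positive and 242 Emerald-negative central reads and a density ratio of 6.26. R08311 (chr16:3349892-3351627) had 134 and 145 at a ratio of 5.29. R13471 (chr2:181653284-181653498) had 74 and 83 at 5.35. R13507 (chr3:8245936-8246948) had 65 and 90 at 7.88. R18727 (chr6:125826799-125827327), the last row of the table, had 51 and 41 at 8.18, with 98.9% of its central reads within 400 bp of the middle. In the first 4 of these 5 the interval of the ratio between the libraries held 1.

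Width (end minus start of the deposited region) differed little between the sets. The median was 1031 bp for the centre-concentrated regions (quartiles 627 and 1543 bp), 1093 bp for the comparison regions and 1111 bp for all autosomal regions. The 983 comparison regions that also had a central signal of at least 8 had a median of 1003 bp. By quartile of width over all autosomal regions, from narrow to wide, 2.93% (interval 2.51 to 3.39), 3.53% (3.07 to 4.04), 2.90% (2.48 to 3.36) and 2.14% (1.79 to 2.55) of the regions were centre-concentrated. The widest quartile thus had the lowest share. Among regions with a central signal of at least 8 the shares were 39.4%, 41.7%, 39.7% and 41.7%, with no fall with width. Of 101 regions of 2500 bp or more, 3 had a central signal of at least 8, and 1 met the rule, R10664 (chr18:46514919-46518467, 3548 bp), with 6 and 5 central reads.

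Strong regions were narrower. Their median width was 705 bp, against 1050 bp for the weaker ones, and 14 of the 49 (28.6%) were at most 300 bp wide, against 14.1% of all autosomal regions. The 81 regions of at least 20 central reads that failed the rule were nearer, with a median of 896 bp and 16.0% at most 300 bp wide. Of the 14 strong ones, 7 were exactly 228 bp and 6 exactly 214 bp wide, which are 2 of the commonest widths in the table. Regions of exactly 228 bp made up 14.3% of the strong and 2.99% of autosomal regions, and those of exactly 214 bp made up 12.2% and 1.72%. The third recurring width, 500 bp, was found in 1 strong region and in 26 of all 671. The narrowest members were 214 bp wide, 22 in all, among them R11719 (chr2:3709260-3709474) with 5 and 7 central reads.

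The row order of the table, which no source used here explains, went with the central level. Of the 671 regions, 148 (22.1%, interval 18.97 to 25.4) lay in the first twentieth of the table and 58 (8.64%, 6.63 to 11.0) in the last. Comparison regions had 7.93% and 6.39% there. Expressed as a rate, 12.6% (10.7 to 14.6) of the autosomal regions in the first twentieth were centre-concentrated, 4.89% in the second, 4.89% (3.74 to 6.28) in the last and 2.04% (1.84 to 2.25) over the third to the eighteenth. The lowest share was 1.21%, in the fifth twentieth.

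**Figure D3:**
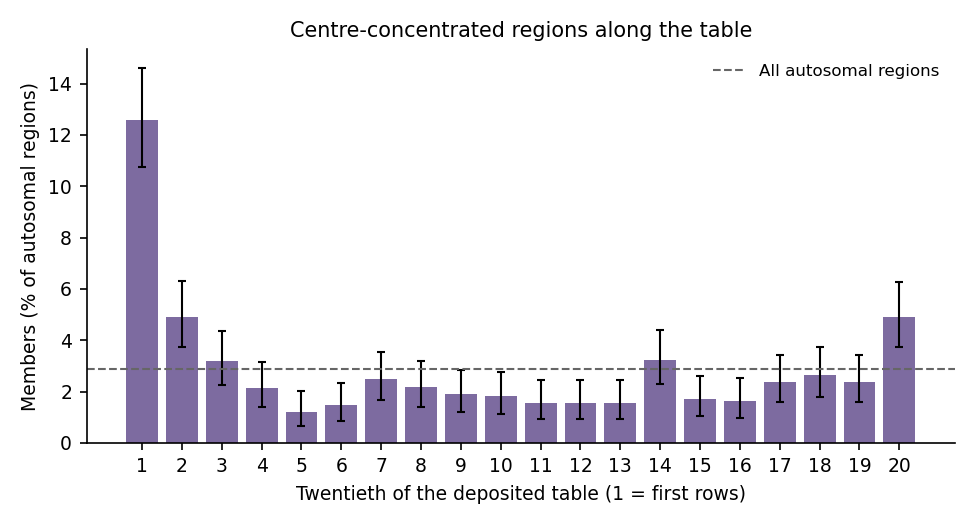
Share of autosomal regions that were centre-concentrated (y axis, percent) in each twentieth of the deposited table (x axis, first rows at the left). Bars are shares, whiskers are exact 95% counting intervals, and the dashed line is the 2.88% over all autosomal regions. The first twentieth stands at 12.6%, above all others, and the second and the last stand at 4.89%.

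The share in the first twentieth was also read at matched whole-window signal. At a whole-window signal of 20 to 30, 16.5% (11.8 to 22.2) of the centre-concentrated and 5.56% of the comparison regions lay there. At 30 to 50 the shares were 23.2% (18.7 to 28.2) and 8.45%, and at 50 or more they were 32.9% (22.7 to 44.4) and 17.8%. The centre-concentrated regions had the higher share in each band. Against regions that share the minimum of central signal the gap was smaller. Of the 983 comparison regions with a central signal of at least 8, 20.4% (17.97 to 23.1) lay in the first twentieth, against the 22.1% of the centre-concentrated regions, and the intervals overlap. The central signal of these 983 was somewhat lower, with a median of 9.66 against 10.6. With a density of 5 or more, 3 of 40 regions lay there.

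The last 20 rows of the table held strong and dense regions. Of the last 20 rows, 7 were centre-concentrated and 6 of these were strong, and of the last 100 rows 13 were, with the same 6 strong ones. In the last 20 rows the 7 members had a median density ratio of 4.95, against 1.92 for the 4 members of the first 20 rows. Over the last 100 rows the median of the 13 was 2.05, and 3 of them reached a density of 5. In the first 100 rows 21 of 95 autosomal regions were centre-concentrated, 4 of them strong, with a median density ratio of 1.98. None of those 21 reached a density of 5. Among 81 autosomal regions of at least 20 central reads that failed the rule, 25.9% lay in the first twentieth and 0 in the last (interval up to 4.45%).

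By chromosome, the share of regions that were centre-concentrated was lowest on chromosome 17, at 1.94% (interval 1.22 to 2.92), and highest on chromosome 8, at 4.41% (3.46 to 5.54). Chromosome 18 followed with 4.10% (2.76 to 5.84), and the interval of every autosome but chromosome 8 held the 2.88% of all autosomes. Chromosome 8 held 70 of the 671 (10.4%), 9.39% of the comparison regions and 6.80% of all autosomal regions. Of the 983 comparison regions with a central signal of at least 8 it held 19.4%. Among regions with a central signal of at least 8, the share that met the rule was lowest on chromosome 8, where 70 of 261 regions (26.8%) met the rule, against 40.6% over all autosomes, 31.6% on chromosome 13 and 56.9% on chromosome 18.

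**Figure D4:**
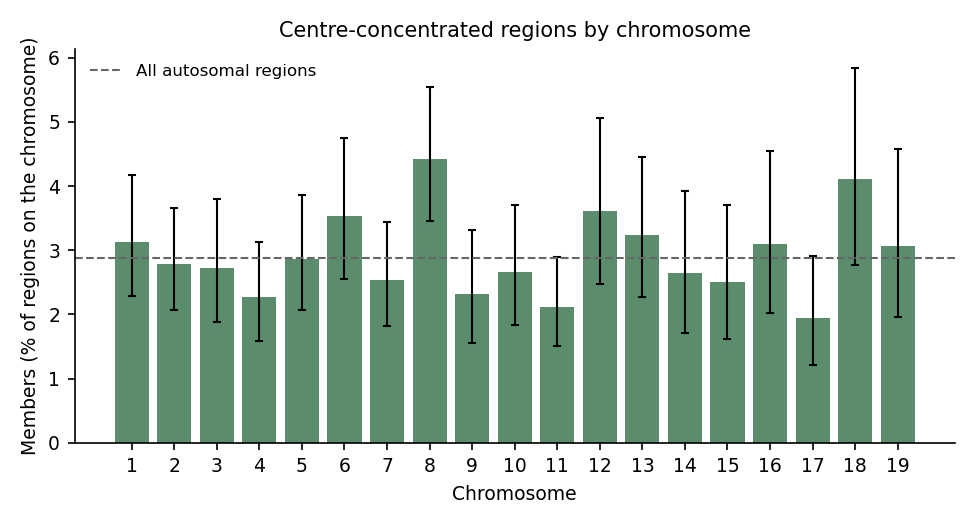
Share of the regions on each autosome that were centre-concentrated (y axis, percent), by chromosome (x axis). Bars are shares, whiskers are exact 95% counting intervals, and the dashed line is the 2.88% over all autosomes. Chromosome 8 stands highest at 4.41% and chromosome 17 lowest at 1.94%.

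Most runs of centre-concentrated regions held a single region. With midpoints under 10 kb apart counted as 1 run, the 671 regions formed 663 runs, of which 656 held 1 region, 6 held 2 and 1 held 3. The 983 comparison regions with a central signal of at least 8 formed 934 runs. Only 2.88% of autosomal regions were chosen, so the number of runs does not by itself measure clustering. The run of 3 lay at the last regions of chromosome 9. Its members R23337 (chr9:123833093-123834687), R23338 (chr9:123840887-123842131) and R23339 (chr9:123843013-123844938) had 12, 16 and 13 central reads, and their windows overlap, so they share reads. The nearest other region of the table lay a median of 20251 bp away, against 21378 bp for the comparison regions and 11184 bp for all autosomal regions. The window overlapped that of another region in 236 of the 671 (35.2%), in 33.6% of the comparison regions and in 46.8% of all autosomal regions.

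The neighbourhood was marked, but not concentrated. For 416 centre-concentrated regions the nearest region 10 to 50 kb away, whose window shares no reads with theirs, had a median whole-window signal of 20.3. Neighbours of comparison regions had 21.5 and those of all autosomal regions 13.5. The pooled centre-to-flank ratio of the neighbours was 0.752, against 0.679 for neighbours of comparison regions. Of the 416 neighbours, 21 (5.05%, interval 3.15 to 7.61) were centre-concentrated themselves, against 3.67% and 2.20% of the neighbours of comparison and of all autosomal regions.

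Some strong regions lay near chromosome ends or near each other. Mouse chromosomes have their centromere at the end where coordinates start. Within 1 Mb of the first region on their chromosome lay 5 of the 49 strong regions (10.2%, interval 3.397 to 22.2), 9 of the 622 weaker ones (1.45%) and 1.26% of all autosomal regions. Of the 81 failing regions of at least 20 central reads, 6 lay there (7.41%, 2.77 to 15.4), and the interval overlaps that of the strong regions. The 5 strong regions were R10254, R02653, R08311 and R06447, described above, and R04467 (chr12:3972429-3974243) with 13 and 9 central reads. R06447 is the first region of the table on chromosome 14. R13471 is the last on chromosome 2, and within 1 Mb of the last region lay 16 of all 671 (2.38%, 1.37 to 3.84), against 0.921% of comparison and 0.955% of all autosomal regions. Of the 983 comparison regions with a central signal of at least 8, 1.32% (0.706 to 2.25) lay there, and the intervals overlap.

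Strong regions under 2 Mb apart formed 5 groups, named here after their values were seen. On chromosome 7 (11895624 to 12194696) 3 of the 5 regions of the table were strong and the other 2 were comparison regions. R19021 there had 20 Emerald-positive and 21 Emerald-negative central reads, R19023 had 17 and 22, and R19025 had 28 and 21. All 3 lay in the first twentieth of the table. On chromosome 4 (145022058 to 146961520) 3 of 38 regions were strong and the other 35 were comparison regions, and the 38 had a median whole-window signal of 199.5, so the members there stood within high signal. On chromosome 6 both regions between 125567765 and 125827327 were strong, and both were among the last 100 rows. The other groups were pairs on chromosomes 8 and 12.

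Between the populations, central H3K9me2 of the centre-concentrated regions was slightly higher in the Emerald-positive library. Summed over the 671 regions there were 5135 central reads of the Emerald-positive and 5598 of the Emerald-negative library, which after the authors' scaling is a log2 ratio of 0.19 (interval 0.13 to 0.24), or 1.14-fold. In the flank the log2 ratio was -0.016 (-0.059 to 0.028). The 49 strong regions had 0.19 (0.10 to 0.29) and the 622 weaker ones 0.19 (0.12 to 0.25). Without R09127 the strong regions had 0.13 (0.034 to 0.23). Region by region, the scaled central signal was higher in the Emerald-positive library in 414 of the 671 (61.7%) and lower in 257, against 59.6% higher among the 983 comparison regions with a central signal of at least 8. The 983 comparison regions with a central signal of at least 8 had 0.14 (0.095 to 0.19), and all autosomal regions had 0.065 (0.044 to 0.087).

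The choice itself favoured the Emerald-positive library. Its reads carry a scaled value of 1.121 each and those of the Emerald-negative library 0.902, so a central Emerald-positive read helped a region past the limit more. With every read counted as 1, an alternative added after seeing the data, 734 regions were chosen, 651 of them shared with the 671. Only the choice counted reads as 1, and the values that follow kept the authors' scaling. The scaled Emerald-positive signal was the higher in 54.0% of the 734. Their central log2 ratio was 0.11 (0.051 to 0.16), and 0.079 (0.018 to 0.14) without regions over 100 central reads. Regions with at least 8 central reads that failed this rule had 0.076 (0.029 to 0.12). On that footing centre-concentrated regions and other regions with a marked centre had overlapping counting intervals, which describe the 2 libraries and not the populations.

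Single regions passed 2-fold at about the rate of other regions with a marked centre. With 1 read added to each library, the central signal was at least 2-fold higher in the Emerald-positive library in 98 of the 671 regions (14.6%), against 13.4% of the 1654 autosomal regions with a central signal of at least 8, 12.6% of the 983 among them that failed the rule and 19.5% of all autosomal regions. It was at least 2-fold lower in 52 (7.75%), against 7.98%, 8.14% and 10.8% of the same sets. The counting interval of the ratio lay above 1 in 17 regions (2.53%), against 2.24% of the 1654 and 2.03% of the 983. It lay below 1 in 10 (1.49%), against 1.57% and 1.63%. The shares of the regions with a marked centre were close to each other, and regions of fewer reads passed 2-fold more often.

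**Figure D5:**
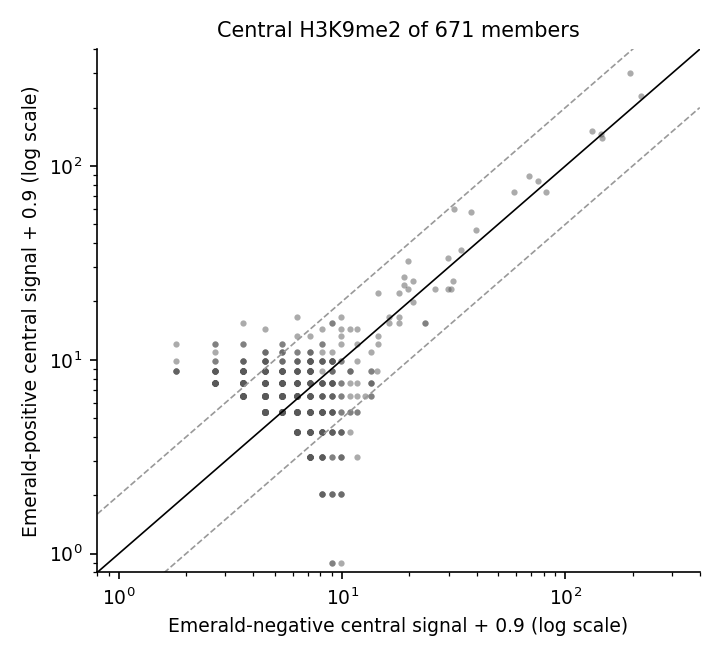
Central H3K9me2 signal of each of the 671 centre-concentrated regions in the Emerald-positive (y axis) against the Emerald-negative library (x axis), in scaled signal plus 0.9 on log axes. The solid line marks equal signal and the dashed lines 2-fold differences. Points with little signal scatter on a grid of whole reads, and all but 1 of the regions with at least 20 central reads lie within 2-fold once 1 read is added to each library.

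Among the 53 regions with at least 20 central reads, 1 (1.89%) was at least 2-fold higher and 0 were at least 2-fold lower. Of the 81 autosomal regions of that depth that failed the rule, 0 were higher and 2 (2.47%) lower. Over all 134 autosomal regions of that depth, which include the 53, the shares were 0.746% and 1.49%. The interval of the ratio lay above 1 in 4 of the 53 (7.55%), against 1 of the 81 (1.23%) and 3.73% of the 134. It lay below 1 in 0 of the 53, against 2 of the 81 (2.47%) and 1.49% of the 134. The region past 2-fold among the 53 was R00481 (chr1:69913829-69914824), with 14 Emerald-positive and 6 Emerald-negative central reads, or 2.90-fold (interval 1.05 to 9.21). R10677 (chr18:47156852-47158604) had 53 and 34, or 1.94-fold (1.24 to 3.07), at a density ratio of 16.7. R09127 stood at 1.56-fold (1.295 to 1.87) and R18727 at 1.55-fold, with an interval whose lower end was just above 1 and whose upper end was 2.39. With 53 regions looked at and no replicate, these 4 are descriptions of the libraries.

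The other high ratios had intervals that held 1. R00301 (chr1:48938165-48938791) had 12 Emerald-positive and 8 Emerald-negative central reads, R04467 and R18447 had 13 and 9 each, R20317 (chr7:137506289-137506517) had 14 and 10, and R19025 had 28 and 21. They ranged from 1.66-fold to 1.86-fold. At the low end, R21311 (chr8:80427935-80428981), R21872 (chr8:117331753-117332518) and R21579 (chr8:95266313-95267353) each had 6 and 14, or 0.533-fold (0.168 to 1.48). R20899 (chr8:40794843-40795057) had 7 and 15, R15236 (chr4:85733043-85734715) and R08953 (chr16:72804357-72804857) had 7 and 14 each, and R05315 (chr12:114951445-114952150) and R00637 (chr1:90116477-90117798) had 13 and 25 each. The 4 lowest all lay on chromosome 8, and R21311, R21872 and R21579 among them were tied. None of the 8 had an interval below 1, and whether low ratios were commoner on chromosome 8 was not tested. Without chromosome 8 the central log2 ratio summed over the centre-concentrated regions was 0.21 (0.15 to 0.27), against 0.19 (0.13 to 0.24) with it.

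In 3 regions (0.447%) no central read was found in the Emerald-positive library, a count that still allows for up to 3 reads (a 1-sided bound). They had 9 or 10 central reads in the Emerald-negative library, where the central minimum of 8 required at least 9. None of the 671 regions lacked central reads in the Emerald-negative library. The 983 comparison regions with a central signal of at least 8 had the same lowest counts, 0 Emerald-positive and 1 Emerald-negative. How many of the 983 had 0 was not counted.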

How the data were processed

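H3K9me2 ChIP-seq of 1 Emerald-negative and 1 Emerald-positive library was used; the labels' protocols also mention a second round of the experiment, whose place in the table is unknown. The deposited signal per 200 bp bin, which the authors scaled, moves in steps of 1 constant per library, and the regions are in mm9 coordinates per the submitters' processing notes. No source used here states the aligner, duplicate handling, scaled total or region caller. Dividing by the step (1.121 Emerald-positive, 0.902 Emerald-negative) and rounding gave whole reads. Of the values above 0, 99.9983% and 99.9995% lay within 0.02, in scaled signal, of a whole number of steps. All 50 bins and all 23946 regions were read, and the rule was applied to chromosomes 1 to 19.

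The members and lists were chosen with earlier results of these data known. Regions named are the 10 of highest central signal, the 8 highest and 8 lowest ratios among those of at least 20 central reads, 3 on each side of the density limit, the 3 widest and 3 narrowest, and runs of 3 or more; some are given as summaries, and R04828, R02618, R19021 and R19023 were named after their values were seen. Fold intervals are exact and conditional on the summed reads. Alternatives changed the limits, the windows, the scaling, the pseudocount and the sets. The code for intervals and the rule was tested on simulated data. The work used Python (3.11.15) with scipy (1.17.1), pandas (2.3.3), numpy (2.4.6) and, for figures, matplotlib (3.10.9).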

Additional observations from a re-analysis of the deposited data

How the results depend on the processing

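The number of centre-concentrated regions, 671, followed its limits: 1064 with a central minimum of 6, 227 with 12, 341 at a density of 2 times, 124 at 3 times and 242 with a centre of 6 bins. The centre-to-flank ratios of the 671, 2.71 for Emerald-positive and 2.35 for Emerald-negative cells, were 1.61 and 1.32 when the other library chose the regions. They were then 1.305 and 1.117 without regions over 100 central reads in both libraries together (added after seeing the data). The central log2 ratio, 0.19, was 0.064 over all 50 bins and -0.016 in the flank. With regions chosen on reads counted as 1, it was 0.11, and 0.079 without regions over 100 central reads (added after seeing the data). Only the choice counted reads as 1, and these ratios kept the authors' scaling. The central log2 ratio was 0.31 as a median over regions with pseudocounts of 0.5, 1 and 2. That is the value that equal read numbers give on the authors' scaling. Counts of 2-fold higher and lower regions, 98 and 52, were 1 and 0 with at least 20 central reads, and 26 were lower with a pseudocount of 2. Comparison regions had median widths of 1003 bp with a central signal of at least 8 and 1130 bp with 1 region per run. The share in the first twentieth, 22.1%, was 18.5% at a density of 2 times, 16.7% when chosen on Emerald-positive and 16.4% on Emerald-negative cells alone, both added after seeing the data. Beyond what a stricter limit or fewer regions does by construction, the cause was not tested. Over all bins 4 named regions turned direction: R00301 to -0.087, R18447 to -0.043, R21872 to 0.11 and R21579 to 0.55. Under the alternatives run for results other than single regions, 40 values stayed within their counting interval or, for counts, within 1.5 times. Another 23 moved beyond that, and 1, the log2 ratio in the flank, reversed. No paired analysis was possible because there is 1 library of each population, so leaving out a library was not possible either.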

Other observations

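The X chromosome was outside the rule. Of its 603 regions 7 (1.16%, interval 0.468 to 2.38) would have met it, against 2.88% of autosomal regions, and the 7 made up 50.0% of the 14 X-linked regions with a central signal of at least 8, against 40.6% on the autosomes. Of the 4 regions on chromosome Y, 0 met it.

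Groups of 4 members less than 500 kb apart from one to the next were found on chromosomes 5, 11, 13 and 16, looked for after the values were seen. On chromosome 5 (22048167 to 22908365) 4 of 12 regions were centre-concentrated, with central signals of 9.20 to 31.7, and on chromosome 11 (120805307 to 121774436) 4 of 15 were, with 8.52 to 15.7. The intervals of the ratio between the libraries held 1 in all 4 groups.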
